A study of Bos taurus with 12 samples.

Results

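Blood libraries of 12 Holstein dairy cows were divided into groups chosen by the level of CD79A (ENSBTAG00000001882), a signalling partner of the B cell receptor: 4 B-cell-poor libraries with less than 500 CPM and 8 B-cell-rich libraries with 500 CPM or more. CPM is the usual unit of a gene's counts scaled to an equal total per library, here raw counts over the column total. The B-cell-poor libraries came from supplemented cows 2 and 6 and control cows 4 and 5, with 223.9, 114.8, 435.3 and 334.6 raw CPM of CD79A. The B-cell-rich libraries came from supplemented cows 1, 3, 4 and 5 and control cows 1, 2, 3 and 6, with 724.2 to 1289.4 raw CPM. The library just inside the limit was control cow 4 at 435.3 CPM and the library just outside it was supplemented cow 4 at 724.2 CPM. These values chose the groups and are not results.

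The study compared cows given a parenteral trace element supplement, called mineral supplementation in the labels, with control cows, 6 of each, all of them female and sampled on day 7 after calving. Blood was drawn from the jugular vein into RNAlater, depleted of haemoglobin RNA and sequenced with 1 library per cow. The labels call the material white blood cells; the elements given, their dose and the ages of the cows are stated in none of the sources used here. Each side of the CD79A division held as many supplemented as control cows, 2 and 2 among the B-cell-poor and 4 and 4 among the B-cell-rich.

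B cells carry the B cell receptor, present antigen on MHC class II molecules and, once activated, turn into antibody-secreting plasma cells. In the blood of cattle they circulate beside alpha-beta and gamma-delta T cells, NK cells, monocytes and granulocytes, and the days around calving are a period of inflammation and of redistribution of these cells. A blood library holds RNA of all of them in proportion to their number and to the RNA in each, and levels of every cell type are shares of 1 total. In such bulk RNA, fewer cells of a type and less RNA per cell cannot be told apart.

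Total counts were 6.78 M to 16.9 M in B-cell-poor and 6.78 M to 14.9 M in B-cell-rich libraries. None of 6 library measures (total count, clusters, yield, base quality in 2 forms, counts per 100 clusters) differed past adjustment by an exact two-sided permutation test over the 495 possible divisions of 4 against 8 libraries (lowest adjusted p = 0.974). The first index sequence was carried by 3 B-cell-poor and 5 B-cell-rich libraries and the other by 1 and 3, too few for a comparison within the second. Supplemented cow 6 stood apart from all other libraries. It was the deepest library, its TMM scaling factor was 0.717 against 0.946 to 1.09 in the others, and S100A12, a calgranulin abundant in granulocytes, reached 27917 raw CPM in it and at most 5721 raw CPM in any other library. The comparison of genes over all cows was therefore also made without this cow. From here on CPM are TMM-scaled, and fold changes are log2 values of B-cell-poor over B-cell-rich from an edgeR quasi-likelihood fit with treatment as a covariate, given with their standard error (SE).

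Of the 11990 genes that passed the count minimum, 3004 (25.1%) were called higher and 2919 (24.3%) lower in B-cell-poor libraries, together 5923 (49.4%). A call here means an adjusted p under 0.05 in edgeR. Counts of called list members below are to be read beside these shares, 25.1% higher and 24.3% lower over all tested genes. Since the groups were read from the same libraries, a call marks a difference that is large against the spread between libraries and is a description, not a test. The 4 B-cell-poor and the 8 B-cell-rich libraries did not overlap for 3152 genes (26.3%), and for 1478 of these (12.3%) the B-cell-poor libraries were the higher ones. In a principal component analysis, component 1 took 56.6% of the variance, and there the 4 B-cell-poor libraries lay at 54.1 to 113.2 and the 8 B-cell-rich libraries at -66.3 to -8.20. Without supplemented cow 6, 2626 genes (22.0%) were called higher and 2676 (22.5%) lower. Of the genes called over all libraries, 5842 could be fitted without this cow. Of these, 5841 kept their sign, and 4831 kept it and were still called. Both fits used the same other libraries and the same division, so a kept sign is no independent support. The share of calls that were higher depended on the scaling. It was 50.7% with TMM and 38.3% with no scaling factor, which gave 2280 genes higher and 3672 lower with a median log2 fold change over all genes of -0.21 in place of -0.03.

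B cell genes were lower in all 4 B-cell-poor libraries as a group, with a summed level of 1651 to 3495 CPM, against 5957 to 8905 CPM in B-cell-rich libraries. Of 29 genes on the list of B cell receptor and B cell identity genes 28 were tested, 22 were called lower and 0 higher, with a median log2 fold change of -1.86, against -0.03 over all genes tested. CD79A defined the groups, and the other B cell genes were measured in the same libraries, so the count is no independent support for the division. MS4A1 (ENSBTAG00000004580), which encodes the surface protein CD20, stood at 161.1, 183.2, 456.6 and 376.2 CPM in supplemented cows 2 and 6 and control cows 4 and 5, against 848.2 to 1320.0 CPM with a median of 1021 CPM in B-cell-rich libraries. The lowest B-cell-rich library lay above the highest B-cell-poor library, and both supplemented cows were lower than both control cows. SPIB (ENSBTAG00000043953), an Ets-family transcription factor of B cells, averaged 130.5 ± 58.1 CPM in B-cell-poor and 865.1 ± 200.4 CPM in B-cell-rich libraries (SD, n = 4 and 8; log2 fold change -2.81 ± 0.22, SE). PAX5, the transcription factor that maintains B cell identity, averaged 16.6 ± 7.85 against 61.9 ± 10.4 CPM (-1.97 ± 0.19), and the adaptor BANK1 171.7 ± 42.4 against 689.2 ± 121.2 CPM (-2.02 ± 0.20). The 6 tested members outside the calls were CD72, BLK, FCRL4, CR2, FCER2 and SWAP70, and CXCR5, the follicle-homing receptor, stood at 28.1, 5.71, 35.0 and 10.4 CPM against 12.2 to 42.4 CPM, with overlapping groups (-0.38 ± 0.51). FCER2, the low-affinity IgE receptor, had the only positive fold change of the list (0.51).

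**Figure D1:**
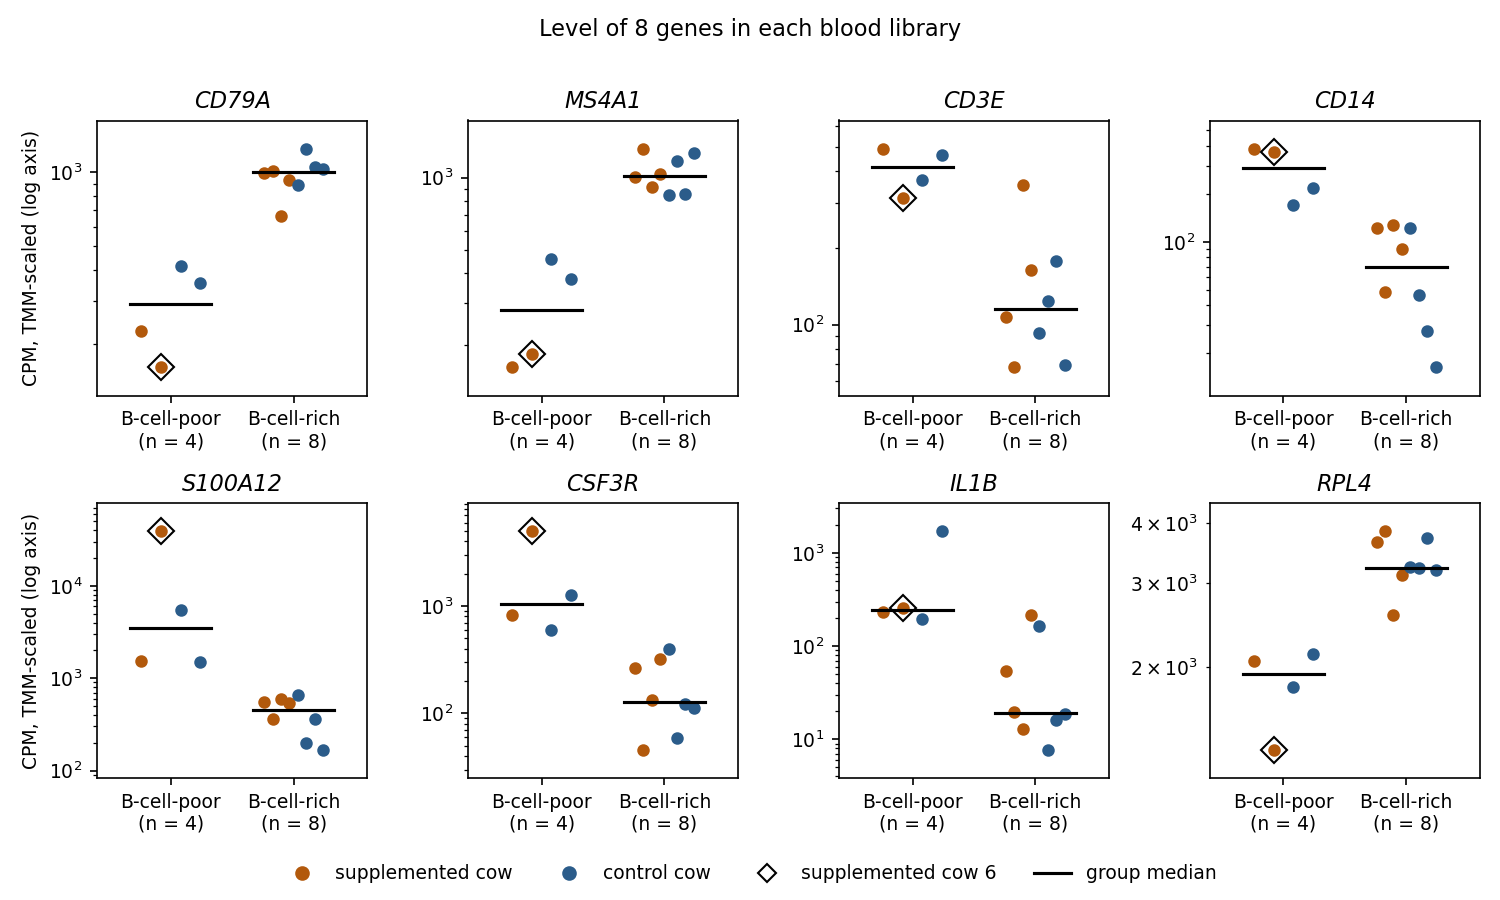
Level of CD79A, MS4A1, CD3E, CD14, S100A12, CSF3R, IL1B and RPL4 in each library, as TMM-scaled CPM on a log axis, with the 4 B-cell-poor libraries left of the 8 B-cell-rich ones in each panel; points are libraries, colours the treatment, diamonds supplemented cow 6 and bars group medians. The groups do not overlap for CD79A, MS4A1, CD14, S100A12, CSF3R and RPL4, and overlap for CD3E, where 1 B-cell-rich library reached 352.2 CPM, and for IL1B.

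The list of plasma cell and antibody secretion genes was not lower as a set, unlike the B cell list. Of 13 listed genes 11 were tested, and the plasma cell surface markers SDC1 and TNFRSF17 did not pass the count minimum. Of the 11, 6 were called higher (54.5%) and 2 lower (18.2%), with a median of 0.81. The shares of all tested genes were 25.1% and 24.3%. The summed level of the list was 874.9 to 1295.9 CPM in B-cell-poor and 816.6 to 1021 CPM in B-cell-rich libraries, with overlapping ranges. FKBP11, a prolyl isomerase of the endoplasmic reticulum, stood at 60.6, 255.8, 80.2 and 59.7 CPM in supplemented cows 2 and 6 and control cows 4 and 5, against 12.1 to 26.5 CPM in B-cell-rich libraries (log2 fold change 2.56 ± 0.32, and 1.93 without supplemented cow 6). XBP1, the transcription factor of the secretory programme, averaged 102.5 ± 32.3 against 41.0 ± 13.8 CPM (1.33 ± 0.20), whereas DERL3, a factor that retrotranslocates misfolded proteins, averaged 29.7 ± 8.95 against 106.2 ± 31.6 CPM (-1.86 ± 0.27). JCHAIN, which joins IgM and IgA chains, was not called (118.4 to 355.4 against 68.1 to 211.7 CPM). Genes of the immunoglobulin chains were not analysed here.

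Of 16 tested genes of MHC class II presentation, 8 were called lower and 4 higher (median -0.48, and -0.23 without supplemented cow 6). The 4 called higher are a share near the 25.1% of all tested genes, and the 8 called lower a share above the 24.3% of all tested genes. CIITA (ENSBTAG00000020649), the master regulator of class II transcription, stood at 108.2, 79.0, 276.5 and 153.8 CPM in supplemented cows 2 and 6 and control cows 4 and 5, against 283.9 to 391.0 CPM in B-cell-rich libraries (log2 fold change -1.20 ± 0.22). BOLA-DOA, a chain of the B-cell-associated peptide-exchange modulator DO, averaged 95.9 ± 41.8 against 224.5 ± 28.5 CPM (-1.30 ± 0.18), and IFI30, a lysosomal thiol reductase, 78.2 ± 6.97 against 141.8 ± 17.2 CPM (-0.86 ± 0.11). LGMN, the lysosomal protease legumain, ran the other way at 261.4 ± 24.6 against 102.4 ± 21.2 CPM (1.36 ± 0.16). BOLA-DRA, the alpha chain of the class II molecule DR, stood at 2618, 1116, 1873 and 2814 CPM against 2061 to 2921 CPM and was not called. CD74, the invariant chain, was called lower (-0.64 ± 0.23), and supplemented cow 6 at 2169.9 CPM lay far below the other B-cell-poor libraries at 6286 to 7236 CPM. The call for CD74 was lost when supplemented cow 1, 3, 4 or 5 or control cow 1, 2 or 4 was left out. BOLA genes are members of a gene family with close copies, between which reads may be divided.

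Most T cell genes were called higher in B-cell-poor libraries. Of 19 tested genes of the T cell receptor and its coreceptors, 18 were called higher and 0 lower (median 1.45). Without supplemented cow 6, 16 were called higher and 0 lower (median 1.56). Only 2 of the 19 were higher without overlap of the groups, against 12.3% of all tested genes. CD3E (ENSBTAG00000015710), a chain of the CD3 complex, stood at 489.7, 315.1, 370.7 and 464.4 CPM in supplemented cows 2 and 6 and control cows 4 and 5, against 68.0 to 352.2 CPM with a median of 115.5 CPM in B-cell-rich libraries (log2 fold change 1.55 ± 0.38). ZAP70, the kinase that the T cell receptor recruits, stood at 274.2 to 528.0 CPM against 73.3 to 271.4 CPM (1.45 ± 0.29). The overlap for CD3E came from supplemented cow 4, the B-cell-rich library nearest to the limit. The summed level of the list was 2335 CPM in supplemented cow 4, 702.5 to 1365 CPM in the other B-cell-rich libraries and 2032 to 3294 CPM in the B-cell-poor libraries. CD4, the coreceptor of helper T cells, averaged 265.3 ± 106.1 against 98.9 ± 60.5 CPM (1.47 ± 0.38), and CD8A, a coreceptor chain of cytotoxic T cells, 90.0 ± 27.4 against 29.3 ± 22.7 CPM (1.62 ± 0.52). The call for CD8A was lost without supplemented cow 6 (1.55) and without control cow 5. CD5, a surface receptor of T cells and of a B cell subset, was the 1 member that was not called (-0.29).

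Of 14 tested genes of naive T cells, 5 were called higher (35.7%) and 1 lower (median 0.65). Of 8 tested gamma-delta T cell genes 3 were called higher (37.5%) and 0 lower (median 1.11). The share called higher among all tested genes was 25.1%. Only 1 naive T cell gene and 0 gamma-delta T cell genes were higher without overlap of the groups, against 12.3% of all tested genes. In the fit without supplemented cow 6, 9 naive T cell genes were called higher and 2 lower (median 0.98), and 5 gamma-delta T cell genes were called higher and 0 lower (median 1.5). The receptor chain genes of gamma-delta T cells were not among the genes found by symbol, and WC1 genes form a family of near-identical copies. LEF1, a transcription factor of naive T cells, stood at 202.7, 44.5, 180.1 and 290.5 CPM in supplemented cows 2 and 6 and control cows 4 and 5, against 34.3 to 102.7 CPM in B-cell-rich libraries (log2 fold change 1.82 ± 0.40). Supplemented cow 6 lay inside the B-cell-rich range for LEF1, and for CCR7, the lymph-node homing receptor, it was lowest of all at 15.2 CPM. CCR7 was not called (0.57 ± 0.48) and had a negative value in supplemented cows alone (-0.15).

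Of 24 tested entries of the NK and cytotoxic list, in which GZMB stands for 2 gene identifiers, 16 were called higher, 1 was called lower and 7 were not called (median 1.37). When supplemented cow 6 was left out, 10 were called higher and 1 lower (median 1.42). FCGR3A, the Fc receptor CD16, averaged 213.3 ± 56.7 CPM in B-cell-poor and 57.4 ± 15.9 CPM in B-cell-rich libraries (log2 fold change 1.89 ± 0.23), and PRF1, perforin, 236.9 ± 64.4 against 102.6 ± 71.9 CPM (1.24 ± 0.38). TBX21 (ENSBTAG00000014199), the transcription factor T-bet, ran the other way at 41.1, 73.4, 67.7 and 59.5 CPM in supplemented cows 2 and 6 and control cows 4 and 5, against 160.3 to 274.4 CPM in B-cell-rich libraries. The groups did not overlap for TBX21 (-1.80 ± 0.18), while the cytotoxic genes PRF1 and NKG7 overlapped. The call for PRF1 was lost without control cow 5, and that for NKG7 without any 1 of supplemented cows 1, 2, 5 and 6 and control cows 1 and 5.

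**Figure D2:**
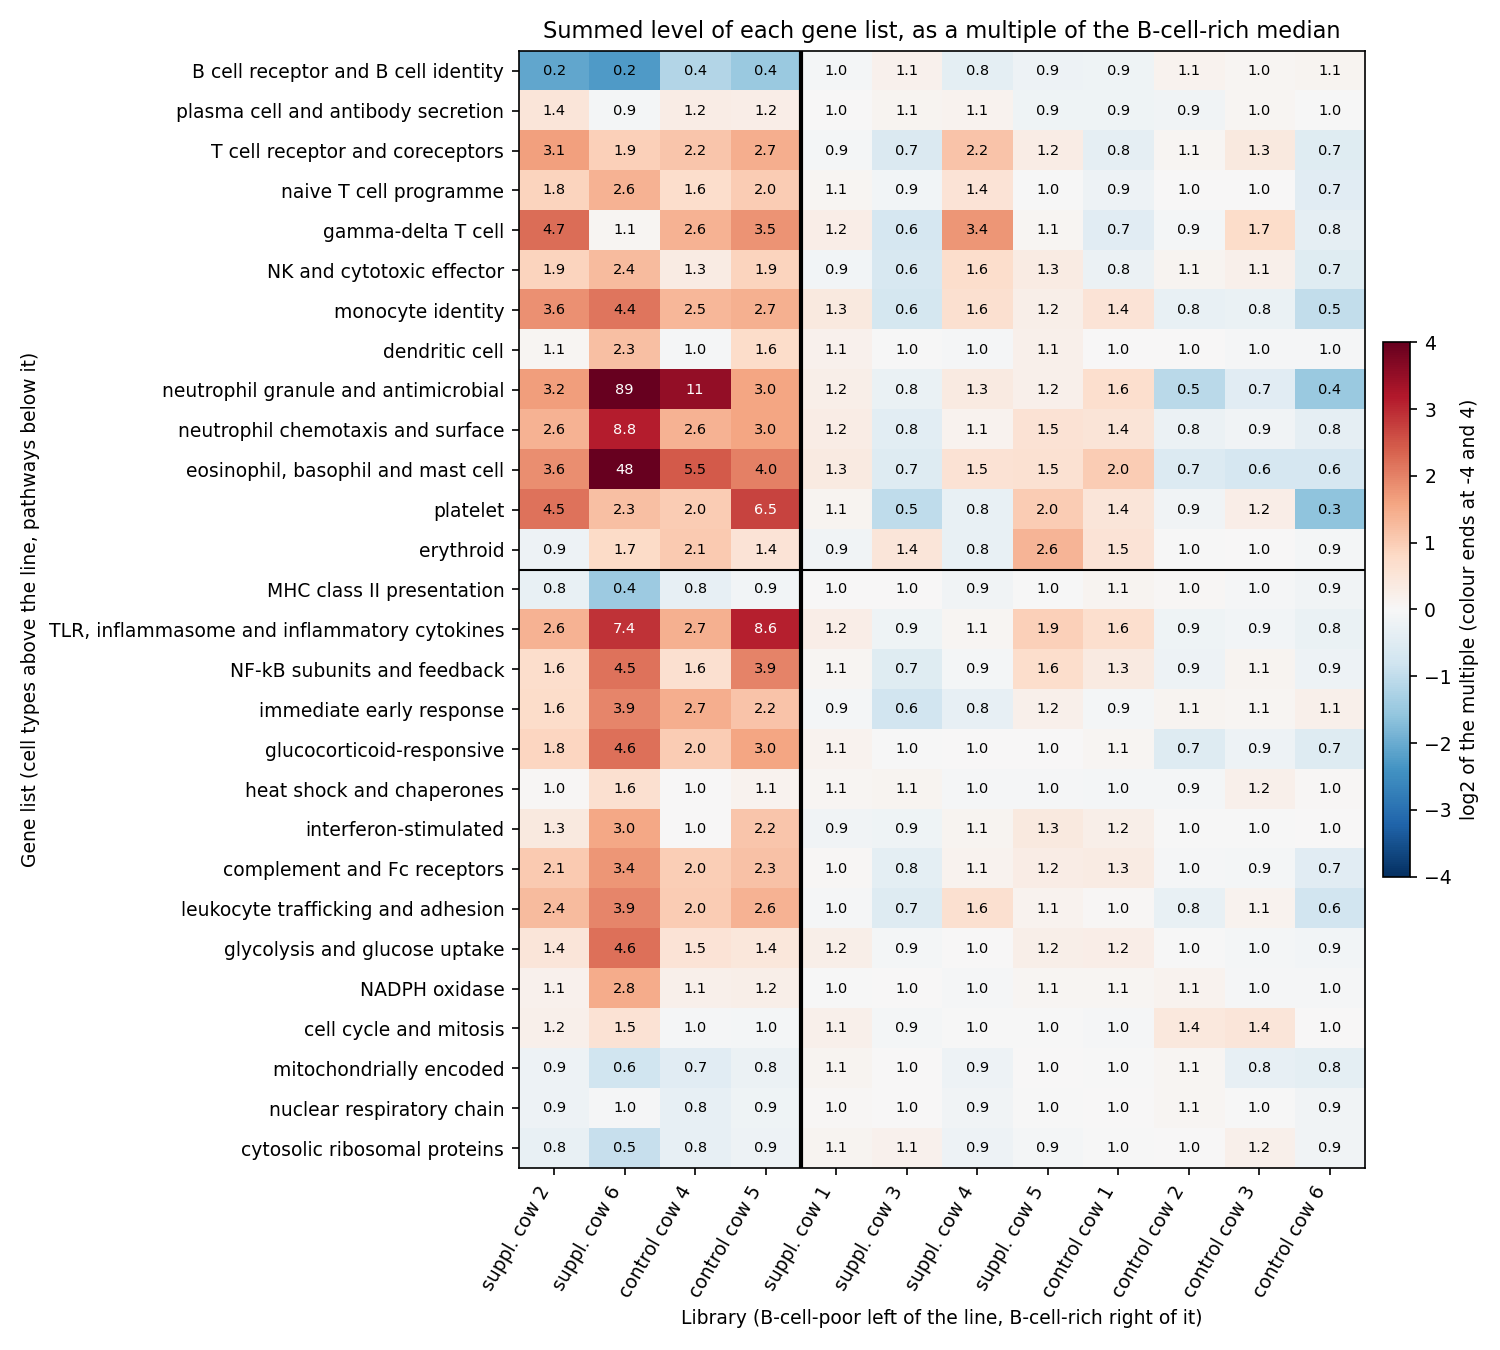
Summed CPM of the members of each of 28 gene lists in each library, divided by the median of the 8 B-cell-rich libraries; numbers are the multiple, colour is its log2, the 4 B-cell-poor libraries stand left of the vertical line and cell type lists above the horizontal one. Supplemented cow 6 reaches 88.9 times the B-cell-rich median for neutrophil granule genes, and supplemented cow 4 is the B-cell-rich library with the highest T cell sum.

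The summed level of monocyte genes was higher in all 4 B-cell-poor libraries than in any B-cell-rich library. Of 22 tested monocyte genes, 18 were called higher and 0 lower (median 1.56, and 1.57 without supplemented cow 6), and their summed level was 7747 to 13842 CPM in B-cell-poor and 1569 to 4897 CPM in B-cell-rich libraries. CD14 (ENSBTAG00000015032), the coreceptor for bacterial lipopolysaccharide, stood at 382.0, 362.9, 169.2 and 217.5 CPM in supplemented cows 2 and 6 and control cows 4 and 5, against 16.4 to 128.3 CPM with a median of 69.6 CPM in B-cell-rich libraries (log2 fold change 1.90 ± 0.42). The groups did not overlap for 10 of the 22 tested monocyte genes. FCN1, the lectin ficolin-1, averaged 1163 ± 357.9 against 339.2 ± 200.6 CPM (1.81 ± 0.30), with overlapping groups. CD163, the haemoglobin scavenger receptor, averaged 181.7 ± 115.8 against 47.5 ± 23.0 CPM (1.91 ± 0.36). The fold change of CD14 was 1.90 with and 1.90 without supplemented cow 6. Of 12 tested dendritic cell genes, 7 were called higher (58.3%) and 2 lower (16.7%), with a median of 1.11. The shares of all tested genes were 25.1% and 24.3%. The summed level of the dendritic cell list overlapped, at 425 to 1011 CPM in B-cell-poor and 419 to 498 CPM in B-cell-rich libraries. TCF4, a transcription factor of plasmacytoid dendritic cells and of B cells, averaged 22.7 ± 8.68 CPM in B-cell-poor and 89.2 ± 17.6 CPM in B-cell-rich libraries (-2.02 ± 0.23), whereas IL3RA, the alpha chain of the interleukin-3 receptor, reached 622.7 CPM in supplemented cow 6, 5.18 to 32.7 CPM in the other B-cell-poor libraries and at most 4.74 CPM in B-cell-rich libraries.

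Of 38 genes on the list of neutrophil granule and antimicrobial genes 27 were tested, 24 were called higher and 0 lower, and the median log2 fold change of 4.56 was the highest of the 28 lists over all libraries. Without supplemented cow 6 only 19 of the list passed the count minimum, 13 were called higher and 0 lower, and the median was 2.45, so part of the list was tested only through that library. That median was below those of the TLR, inflammasome and inflammatory cytokine list (2.57) and the neutrophil chemotaxis list (2.46) in the same fit, and without the 2 libraries highest in S100A12 it was 1.37. S100A12 (ENSBTAG00000012638) stood at 1532, 38938, 5478 and 1512 CPM in supplemented cows 2 and 6 and control cows 4 and 5, against 167.8 to 652.5 CPM with a median of 447.4 CPM in B-cell-rich libraries. Its log2 fold change was 4.44 ± 0.73 with all libraries and 2.81 without supplemented cow 6, and all 4 B-cell-poor libraries lay above all 8 B-cell-rich ones. The calgranulins S100A8 and S100A9 and haptoglobin (HP), an acute-phase protein kept in granules, had log2 fold changes of 4.53 ± 0.84, 4.67 ± 0.82 and 3.25 ± 0.53, and of 2.54, 2.94 and 2.57 without this cow. Summed over the list, the level was 3740, 104300, 13470 and 3528 CPM in supplemented cows 2 and 6 and control cows 4 and 5, against 423.5 to 1884 CPM in B-cell-rich libraries. Supplemented cow 2 and control cow 5 thus lay 3.19 and 3.01 times above the B-cell-rich median, control cow 4 11.5 times and supplemented cow 6 88.9 times. Cathelicidins and defensins on this list are families of close copies.

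Receptors of mature neutrophils were more even across the 4 libraries. Of 22 tested genes of neutrophil chemotaxis and surface, 21 were called higher and 0 lower (median 2.76, and 2.46 without supplemented cow 6, with 18 of 20 then called higher). CSF3R, the receptor of granulocyte colony-stimulating factor, which monocytes share, stood at 829.6, 4959, 603.1 and 1275 CPM in supplemented cows 2 and 6 and control cows 4 and 5, against 45.9 to 397.6 CPM in B-cell-rich libraries (log2 fold change 3.25 ± 0.65, and 2.32 without supplemented cow 6). CXCR2, a chemokine receptor of neutrophils, stood at 63.8 to 505.7 CPM against 0.262 to 29.8 CPM (3.68 ± 0.79, and 2.82 without this cow), and C5AR1, the receptor of complement C5a, at 176.6 to 705.1 CPM against 8.52 to 54.2 CPM (3.40 ± 0.54). Neither gene overlapped between the groups. Of 8 tested eosinophil, basophil and mast cell genes 3 were called higher (37.5%) and 1 lower (12.5%), beside 25.1% and 24.3% of all tested genes. The sum of this list, 48.0 times the B-cell-rich median in supplemented cow 6, was largely ADGRE1 at 3243 CPM in that cow.

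Platelet genes were also higher, in another order of libraries. Of 11 tested platelet genes, 8 were called higher and 0 lower (median 1.84, and 2.01 without supplemented cow 6). Their summed level was highest in control cow 5 at 4041 CPM and supplemented cow 2 at 2791 CPM, followed by supplemented cow 6 at 1437 CPM and control cow 4 at 1260 CPM, against 203.7 to 1272 CPM in B-cell-rich libraries. SELP, P-selectin, averaged 23.5 ± 18.4 CPM in B-cell-poor and 4.26 ± 2.71 CPM in B-cell-rich libraries (log2 fold change 2.41 ± 0.56), and GNG11, a G protein subunit abundant in platelets, 412.1 ± 191.2 against 102.3 ± 79.1 CPM (2.01 ± 0.53). Of 12 tested erythroid genes 1 was called higher (8.33%) and 3 lower (25%), beside 25.1% and 24.3% of all tested genes. The erythroid median was 0.65 over all cows and -0.56 in supplemented cows alone. The summed erythroid level was 241.8 to 578.9 CPM in B-cell-poor and 230.0 to 716.9 CPM in B-cell-rich libraries.

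**Figure D3:**
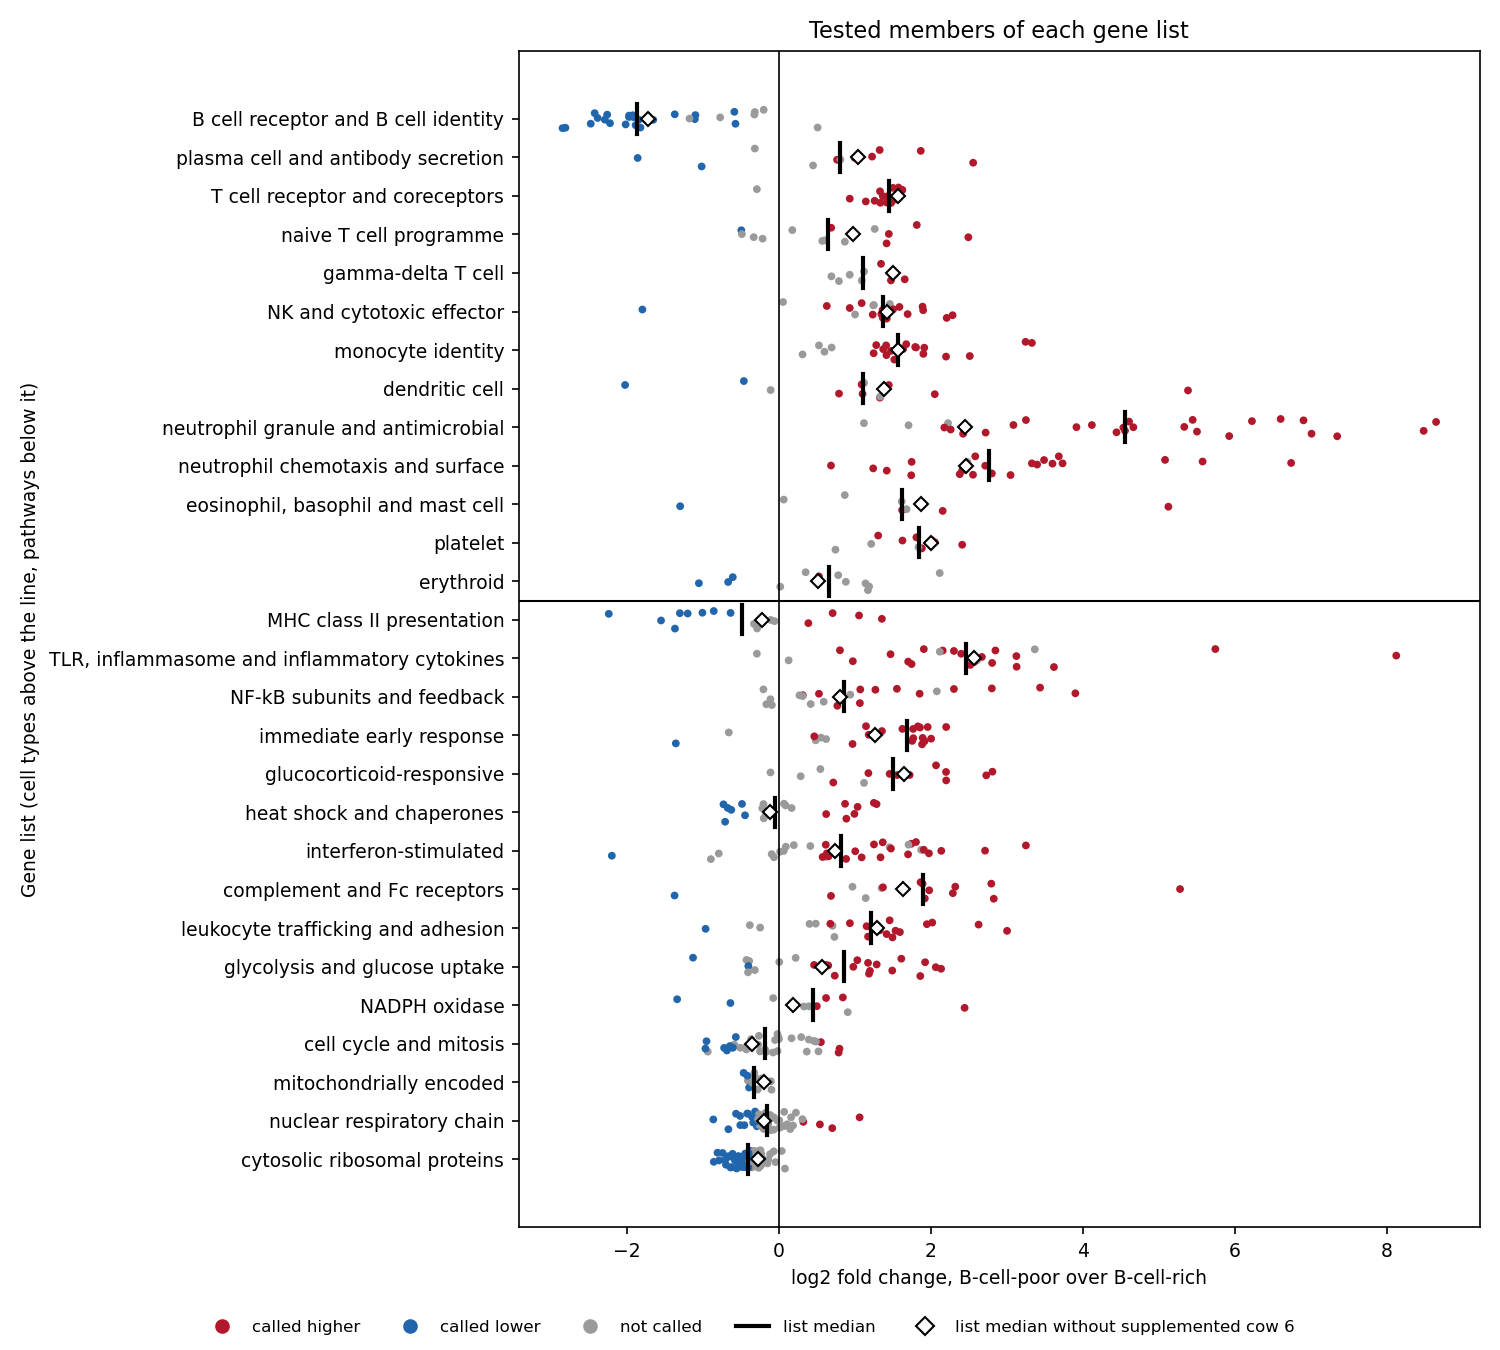
Log2 fold change, B-cell-poor over B-cell-rich, of every tested member of the 28 gene lists; points are genes coloured by call, black bars the list median over all libraries and open diamonds the list median without supplemented cow 6. B cell genes other than FCER2 (0.51) lie left of 0, and the median of their list is -1.86. Ribosomal protein genes have a median of -0.41. Neutrophil granule genes spread from 1.12 upward, and their median moves to 2.45 without supplemented cow 6.

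Inflammatory mediators were called higher in 19 of 24 tested genes and lower in 0 (median 2.46, and 2.57 without supplemented cow 6). Among the genes of Toll-like receptors, inflammasome and cytokines, NLRP3, the inflammasome sensor, averaged 62.1 ± 36.8 CPM in B-cell-poor and 11.3 ± 5.25 CPM in B-cell-rich libraries (log2 fold change 2.52 ± 0.39), and IL1RN, the interleukin-1 receptor antagonist, 306.0 ± 93.7 against 69.1 ± 36.9 CPM (2.16 ± 0.38). IL1B, interleukin-1 beta, stood at 229.5, 258.1, 192.8 and 1697 CPM in supplemented cows 2 and 6 and control cows 4 and 5, against 7.73 to 215.7 CPM with a median of 19.2 CPM in B-cell-rich libraries (3.13 ± 1.03). Control cow 5 stood far above the others for IL1B, and the value was 1.77 without that cow. The call for IL1B was lost without control cow 5 and also without control cow 6. TNF was not called, at 264.8 CPM in control cow 5, 11.4 to 13.9 CPM in the other B-cell-poor libraries and 6.17 to 37.0 CPM in B-cell-rich libraries, and its log2 fold change of 2.12 ± 1.01 turned to -0.25 without control cow 5. CXCL8, the neutrophil-attracting chemokine interleukin-8, stood at 138.1 to 534.1 CPM against 10.3 to 115.6 CPM with no overlap (2.81 ± 0.63).

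NF-kB genes were called higher in 12 of 22 tested and lower in 0 (median 0.85). TNIP1, an inhibitor of NF-kB signalling, stood at 365.6, 527.6, 250.4 and 438.9 CPM in supplemented cows 2 and 6 and control cows 4 and 5, against 145.5 to 181.4 CPM in B-cell-rich libraries (log2 fold change 1.27 ± 0.16). SOD2, the mitochondrial superoxide dismutase and an NF-kB target, reached 4925 CPM in supplemented cow 6 and 277.1 to 346.6 CPM in the other B-cell-poor libraries, against 35.7 to 144.0 CPM in B-cell-rich libraries (3.90 ± 0.77, and 2.10 without supplemented cow 6). Of the NF-kB subunits, RELA was called higher (0.53 ± 0.12), while NFKB1, NFKB2, RELB and REL were not called, with log2 fold changes of -0.09, -0.16, -0.20 and 0.27. TNFAIP3, the feedback inhibitor A20, was not called either (2.08).

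Immediate early genes, which respond within minutes to stimulation, were called higher in 17 of 22 tested and lower in 1, MYC (median 1.69, and 1.26 without supplemented cow 6). JUN stood at 582.1, 1289, 1251 and 642.5 CPM in supplemented cows 2 and 6 and control cows 4 and 5, against 138.6 to 335.6 CPM in B-cell-rich libraries (log2 fold change 1.83 ± 0.24). DUSP2, a phosphatase of MAP kinases, was even across the B-cell-poor libraries, at 896.1 ± 85.3 against 231.7 ± 89.8 CPM (1.96 ± 0.29). Glucocorticoid-responsive genes were called higher in 10 of 14 tested and lower in 0 (median 1.51). SGK1, a kinase induced by glucocorticoids, stood at 169.3 to 473.9 CPM in B-cell-poor and 15.1 to 91.2 CPM in B-cell-rich libraries (2.73 ± 0.44), and ANXA1, annexin A1, which is abundant in granulocytes and monocytes, at 989.9 to 4931 CPM against 109.3 to 425.5 CPM (2.81 ± 0.45, and 2.10 without supplemented cow 6). FKBP5, a glucocorticoid receptor co-chaperone, differed less, with overlapping groups (170.2 ± 43.0 against 105.2 ± 24.5 CPM, 0.72 ± 0.18). Of 20 tested heat shock genes, 7 were called higher (35%) and 6 lower (30%), beside 25.1% and 24.3% of all tested genes. Their median was -0.05, and nothing is read from these counts. HSPB1 (1.25 ± 0.16) and HSPA5 (1.04 ± 0.19) were higher, and HSF1, a transcription factor of heat shock genes, was lower (-0.67 ± 0.11).

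Interferon-stimulated genes were called higher in 21 and lower in 1 of 36 tested (median 0.82). Without supplemented cow 6, 11 were called higher and 2 lower. ISG20, an exonuclease, stood at 65.3, 163.2, 38.4 and 118.3 CPM in supplemented cows 2 and 6 and control cows 4 and 5, against 4.87 to 30.3 CPM in B-cell-rich libraries (log2 fold change 2.71 ± 0.48). CXCL10, an interferon-induced chemokine, was the member called lower, at 1.96 to 6.51 CPM against 10.5 to 35.0 CPM (-2.20 ± 0.41). Of 15 tested complement and Fc receptor genes, 11 were called higher and 1 lower (median 1.89). FCER1G, the common gamma chain of Fc receptors, averaged 559.6 ± 506.7 against 72.8 ± 30.2 CPM (2.83 ± 0.42, and 2.10 without supplemented cow 6). FCGR2B, the inhibitory Fc receptor found on B cells, was the one called lower, at 40.2 ± 7.95 against 103.6 ± 23.7 CPM (-1.37 ± 0.19). Trafficking and adhesion genes were called higher in 15 and lower in 1 of 23 tested (median 1.21), among them SELPLG, the ligand of P-selectin (2.63 ± 0.38, and 1.98 without supplemented cow 6), and ITGB7, an integrin chain of gut homing (2.02 ± 0.31).

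Of 24 tested genes of glycolysis and glucose uptake, 16 were called higher and 2 lower (median 0.86, and 0.57 without supplemented cow 6), with LDHA, lactate dehydrogenase A, at 601.0 ± 190.0 CPM in B-cell-poor and 258.7 ± 52.3 CPM in B-cell-rich libraries (log2 fold change 1.19 ± 0.17) and PFKP, a phosphofructokinase isoform, at 104.0 ± 11.2 against 227.6 ± 50.9 CPM (-1.13 ± 0.18). Of 10 tested genes of the phagocyte NADPH oxidase, 4 were called higher (40%) and 2 lower (20%), beside 25.1% and 24.3% of all tested genes. NCF1, a cytosolic subunit, was higher (2.44 ± 0.43, and 1.64 without supplemented cow 6) and HVCN1, a proton channel, lower (-1.34 ± 0.31). With supplemented cow 6 left out, 2 of these 10 genes were called higher and 3 lower, with a median of 0.18 against 0.45 over all libraries. Cell cycle genes were called higher in 3 and lower in 7 of 35 tested (median -0.18), and the median was 0.17 in supplemented cows alone. Of 49 tested nuclear genes of the respiratory chain 14 were called lower and 4 higher (median -0.16), and of 13 mitochondrially encoded genes 3 were called lower and 0 higher (median -0.32). The shares called lower were 20.0% of the cell cycle, 28.6% of the respiratory chain and 23.1% of the mitochondrially encoded genes, near the 24.3% of all tested genes, and nothing is read from them. Without supplemented cow 6, 0 of the 13 mitochondrially encoded genes were called in either direction (median -0.20).

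Cytosolic ribosomal protein genes were called lower in 46 of 76 tested and higher in 0 (median -0.41, and -0.28 without supplemented cow 6, with 31 then called lower). RPL4 stood at 2060.5, 1340.4, 1813 and 2130.0 CPM in supplemented cows 2 and 6 and control cows 4 and 5, against 2569.7 to 3845 CPM in B-cell-rich libraries (log2 fold change -0.86 ± 0.15). The summed level of the 76 genes took 63333 CPM in supplemented cow 6, 96667 to 104039 CPM in the other B-cell-poor libraries and 104686 to 140248 CPM in B-cell-rich libraries. All 4 B-cell-poor sums lay below the B-cell-rich sums, by a margin that was narrow between control cow 5 and supplemented cow 4. Ribosomal protein genes have many processed copies in the genome, to which reads can be assigned. EEF1A1, a translation elongation factor, was not called (-0.43 ± 0.18).

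Genes outside the B cell and plasma cell lists were ranked by fold change among those whose groups did not overlap, with at least 5 CPM in the higher group. This left 1275 genes higher and 1456 lower, from which those with the largest fold change in each direction were taken, 15 a side. Those higher in B-cell-poor libraries were PTX3, PROK2, IL3RA, CPNE2, CFB, KREMEN1, UPP1, ADGRE1, IL1R2, ADGRG3, TGM3, S100A9, ALOX5AP, RETN and SLC28A3, with log2 fold changes of 4.56 to 8.13. PTX3 (ENSBTAG00000009012), a pentraxin kept in neutrophil granules, stood at 3.55, 723.5, 116.8 and 50.3 CPM in supplemented cows 2 and 6 and control cows 4 and 5, against 0 to 3.11 CPM in B-cell-rich libraries (8.13 ± 1.1, and 5.98 without supplemented cow 6). UPP1, uridine phosphorylase, stood at 27.5, 934.5, 173.2 and 27.7 CPM against 0.918 to 14.7 CPM (5.16 ± 0.90). CFB, complement factor B, stood at 3.10, 169.8, 10.8 and 12.9 CPM against 0.247 to 1.61 CPM (5.28 ± 0.85). Supplemented cow 6 was the highest library for each of these 15 genes. Without it, 14 of them passed the count minimum, with fold changes of 2.23 to 5.98. The summed levels of the neutrophil granule and neutrophil surface lists were highest in the same library, and their part in these values was not tested. Of the eosinophil, basophil and mast cell list, ADGRE1 was highest there. CCR3 and GATA1 of that list stood at 22.1 and 6.12 CPM in supplemented cow 6. They were highest in control cow 5 (71.7 CPM) and supplemented cow 2 (15.4 CPM).

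**Figure D4:**
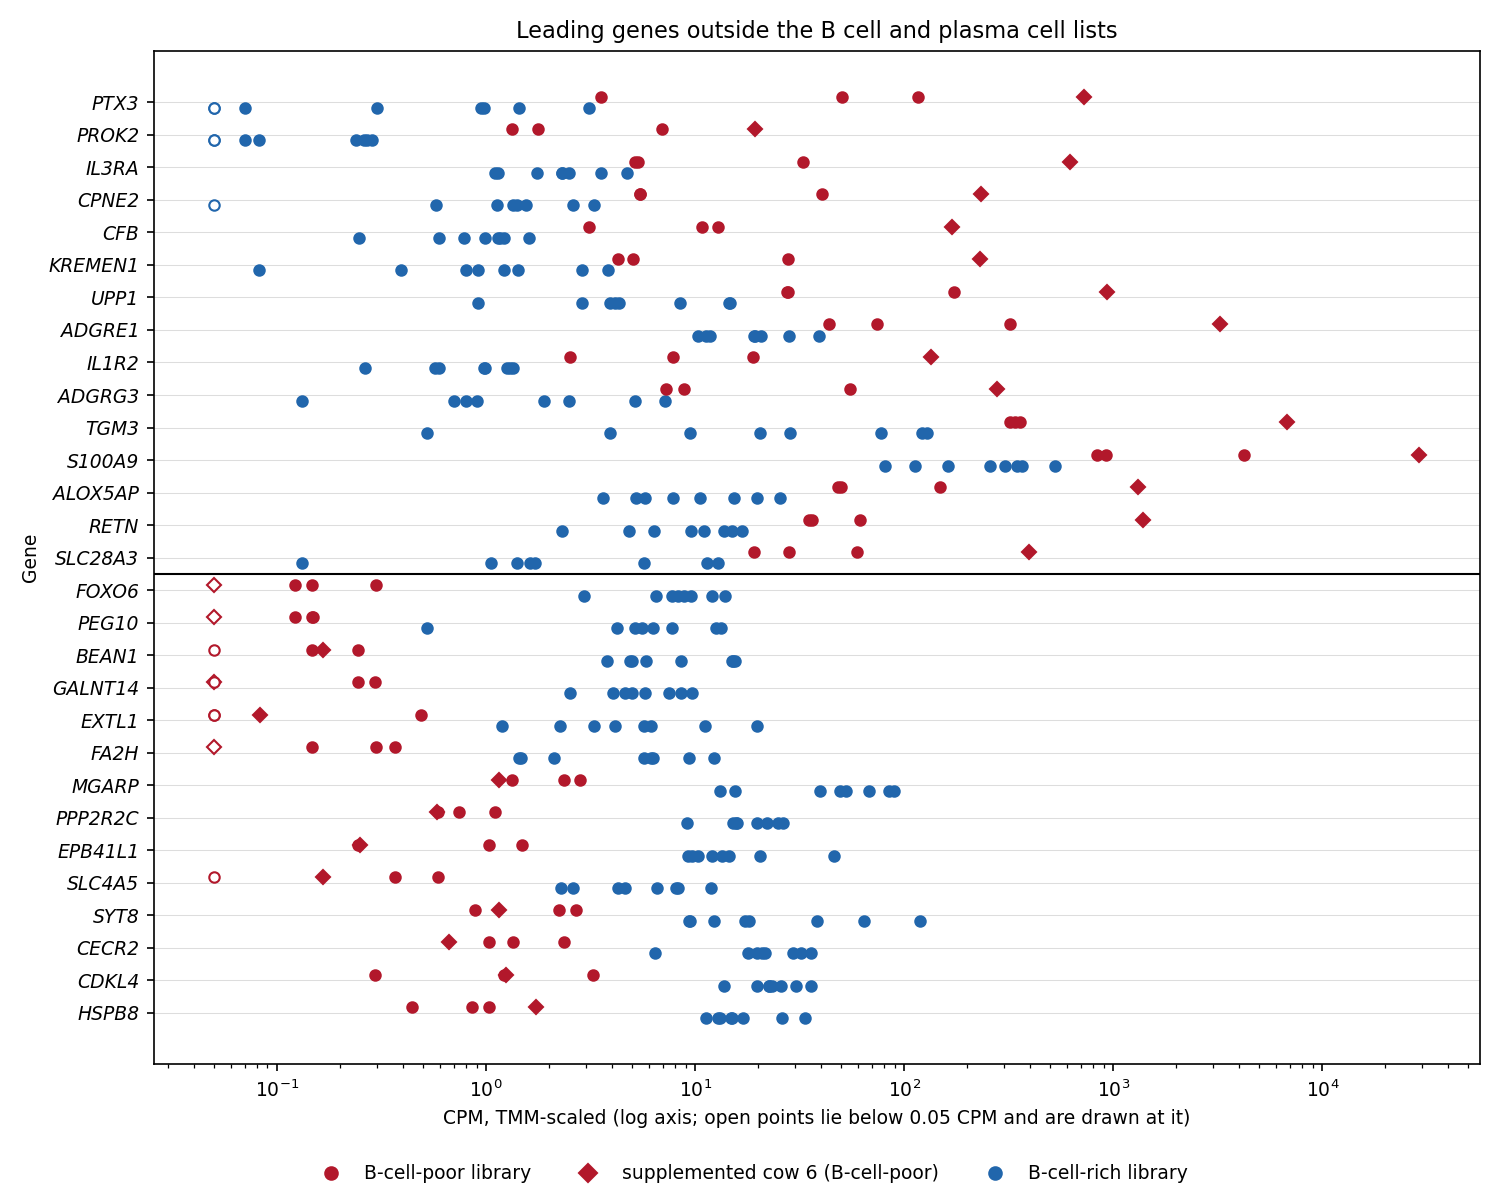
TMM-scaled CPM on a log axis of the 15 genes with the largest positive and 14 of the 15 with the largest negative fold change outside the B cell and plasma cell lists; red points are the 4 B-cell-poor libraries, the red diamond supplemented cow 6, and blue points the 8 B-cell-rich libraries. For genes above the line the diamond lies farthest right, and for genes below it supplemented cow 6 reaches at most 1.74 CPM.

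Of the 15 genes with the most negative fold changes, 14 are given here, namely FOXO6, PEG10, BEAN1, GALNT14, EXTL1, FA2H, MGARP, PPP2R2C, EPB41L1, SLC4A5, SYT8, CECR2, CDKL4 and HSPB8, with values from -6.01 to -4.0. None of them stands on any of the 28 lists, and supplemented cow 6 reached at most 1.74 CPM for any of them. PPP2R2C (ENSBTAG00000020598), a regulatory subunit of protein phosphatase 2A, stood at 0.591, 0.579, 1.1 and 0.740 CPM in supplemented cows 2 and 6 and control cows 4 and 5, against 9.13 to 26.2 CPM with a median of 17.8 CPM in B-cell-rich libraries (log2 fold change -4.61 ± 0.34). MGARP (ENSBTAG00000002599), a mitochondrial protein, stood at 1.33, 1.16, 2.82 and 2.37 CPM against 13.1 to 89.2 CPM (-4.78 ± 0.64). CECR2, a bromodomain protein of chromatin remodelling, stood at 1.03, 0.662, 1.35 and 2.37 CPM against 6.46 to 35.9 CPM (-4.14 ± 0.39), and HSPB8, a small heat shock protein, averaged 1.02 ± 0.540 against 18.0 ± 7.78 CPM (-4.0 ± 0.41, and -4.63 without supplemented cow 6). FOXO6 (ENSBTAG00000024115), a forkhead transcription factor, and PEG10, a retrotransposon-derived imprinted gene, reached at most 0.296 and 0.148 CPM in B-cell-poor libraries, against 2.95 to 13.9 CPM and 0.520 to 13.3 CPM in B-cell-rich libraries. At such low levels, a few reads per library, the fitted values of -6.01 ± 0.62 and -5.99 ± 0.84 depend on the prior count. Without supplemented cow 6 the PPP2R2C, MGARP and CECR2 values were -4.54, -4.61 and -3.99.

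Genes outside the B cell, plasma cell and MHC class II lists whose log2 CPM followed CD79A most closely over the 12 libraries were SHANK3, NUTF2, PALM, COQ2, PRMT1, STX10, PHB2, C1QBP, VAV2 and FZD5, with Pearson r of 0.984 to 0.991. These r describe 12 libraries that fall into 2 groups by construction, and no p is given. SHANK3 (ENSBTAG00000030180), a scaffold protein known from synapses, stood at 8.87, 4.97, 20.2 and 16.0 CPM in supplemented cows 2 and 6 and control cows 4 and 5, against 49.7 to 129.4 CPM in B-cell-rich libraries (log2 fold change -3.06 ± 0.27). PALM, the membrane protein paralemmin, averaged 91.3 ± 33.3 against 415.7 ± 91.1 CPM (-2.24 ± 0.21), and VAV2, a guanine nucleotide exchange factor, 12.2 ± 4.22 against 57.4 ± 9.82 CPM (-2.29 ± 0.21). NUTF2, a nuclear import factor, differed by less than these, at 46.2 ± 8.17 against 86.9 ± 8.44 CPM (-0.92 ± 0.12).

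The 4 B-cell-poor libraries did not share 1 order across the lists. Relative to the B-cell-rich median, supplemented cow 2 had the highest T cell sum (3.14 times) and supplemented cow 6 the lowest of the 4 (1.94 times), while monocyte sums ran from 2.49 times in control cow 4 to 4.45 times in supplemented cow 6. Cytokine genes were highest in control cow 5 (8.60 times) and supplemented cow 6 (7.41 times), against 2.61 and 2.66 times in supplemented cow 2 and control cow 4. Immediate early genes were 3.91 times in supplemented cow 6, 2.73 in control cow 4, 2.19 in control cow 5 and 1.65 in supplemented cow 2. Glycolysis genes lay at 1.36 to 1.47 times in 3 libraries and at 4.63 times in supplemented cow 6.

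Whether the difference depended on treatment was a question the division did not use, and it was tested as an interaction. By edgeR's quasi-likelihood test 0 of 11990 genes (0.0%) differed in their B-cell-poor to B-cell-rich change between supplemented and control cows at an adjusted p under 0.05 (lowest adjusted p = 0.914), with 484 genes at an unadjusted p under 0.05. DESeq2 on the same model called 3 of 11954 genes (0.0251%), with 569 at an unadjusted p under 0.05. With 2 B-cell-poor cows in each treatment group, this does not show that the changes were alike. Fitted separately, supplemented cows gave 1177 genes called higher (9.72%) and 947 lower (7.82%), and control cows 1704 higher (14.4%) and 1443 lower (12.2%). Among genes tested in both fits, 1459 were called in both, which is 70.8% of the calls in supplemented cows and 46.6% of those in control cows, and each of the 1459 had the same sign in both, 795 higher and 664 lower. The 2 fits share no cow but share the rule that divided the cows.

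The blood chemistry and milk of the same cows were measured outside the RNA libraries and were compared across the division by exact two-sided permutation, as a family of 21 measures. OSi in this family is the ratio of TBARS to AC on the same day, computed here, and no separate determination. TBARS, a measure of lipid peroxidation, on day 0 was 0.882, 1.02, 0.928 and 1.066 in supplemented cows 2 and 6 and control cows 4 and 5, against 0.652 to 0.790 with a median of 0.744 in the cows with B-cell-rich libraries (unit not stated). The groups did not overlap, and the means were 0.974 ± 0.0840 and 0.721 ± 0.0492 (SD, n = 4 and 8), a difference of 0.253, with 4 of 4 B-cell-poor cows above the B-cell-rich mean. The exact permutation p was 0.00404, the smallest that this design can give by doubling the smaller tail, and it did not pass the adjustment over 21 measures (adjusted p = 0.0848). By this definition 1 measure alone cannot pass the adjustment, however far apart the groups lie. The failure to pass was thus set by the design and says nothing about the difference. With the two-sided p counted from absolute differences, a definition added after the data were seen, the exact p was 0.00202 and the adjusted p 0.0424, which passed. Within treatment groups the exact permutation p was 0.00889 (adjusted p = 0.187), again the smallest that the divisions within groups can give.

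On the later days the TBARS ranges of the groups overlapped. On day 4 the means were 0.882 ± 0.106 in B-cell-poor and 0.876 ± 0.138 in B-cell-rich cows (exact permutation p = 1, n = 4 and 8), and on day 7, the day of the RNA samples, 0.822 ± 0.182 and 0.730 ± 0.168 (exact p = 0.444, adjusted p = 0.920). On day 14 they were 0.950 ± 0.258 in B-cell-poor and 0.776 ± 0.191 in B-cell-rich cows (exact permutation p = 0.275, adjusted p = 0.920). All 4 B-cell-poor cows lay above the B-cell-rich mean on that day, with ranges of 0.776 to 1.33 against 0.637 to 1.15. GSH-Px, glutathione peroxidase activity, on day 7 was 77.1, 80.1, 53.2 and 68.0 in supplemented cows 2 and 6 and control cows 4 and 5, against 65.5 to 124.4 in the B-cell-rich cows, with overlapping groups. Its means were 69.6 ± 12.1 and 89.6 ± 16.9, a difference of -19.98 with 0 of 4 B-cell-poor cows above the B-cell-rich mean (exact permutation p = 0.0404, adjusted p = 0.424), so it did not pass. Milk on day 30 averaged 37.25 ± 3.30 against 36.0 ± 5.24 (unit not stated, exact permutation p = 0.711). In all, 0 of the 21 measures passed under the main definition of the p, by which 1 measure alone could not pass. An unadjusted p under 0.05 was reached by 2 measures.

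**Figure D5:**
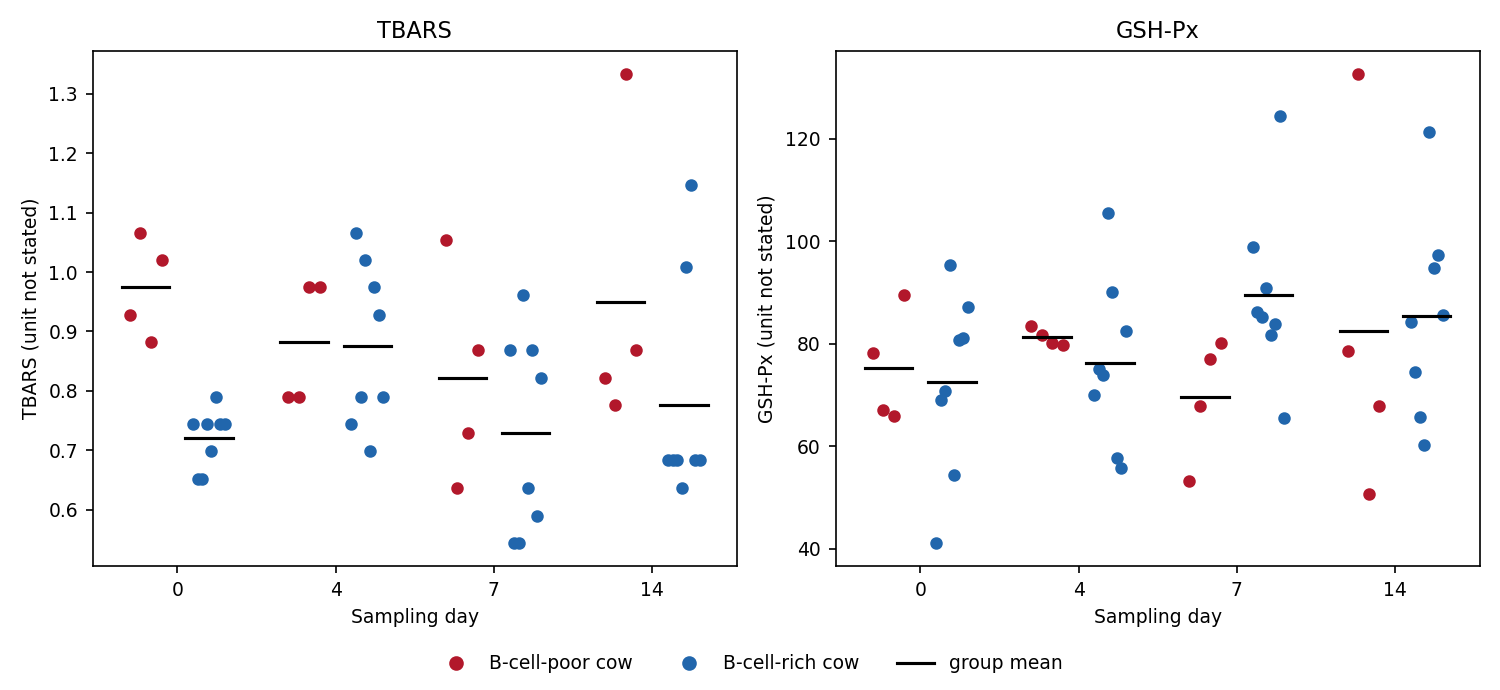
TBARS and GSH-Px (units not stated) of each cow on sampling days 0, 4, 7 and 14, with the 4 B-cell-poor cows left of the 8 B-cell-rich cows on each day; points are cows and bars group means. TBARS does not overlap between the groups on day 0 (0.882 to 1.066 against 0.652 to 0.790) and overlaps on every later day.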

How the data were processed

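Gene counts were used as the authors deposited them, as raw counts for each of 27429 genes and 12 libraries. FastQC, STAR, featureCounts and DESeq2 and the build ARS-UCD1.2 are named, without versions or roles, per the submitters' processing notes. No source used here states the annotation or whether counting used strand, so a gene cannot be separated from an overlapping, antisense or near-identical one. A deposited sequencing summary gives clusters, yield (a signal), the percent of high-quality bases and, as a score, the mean base quality, per the file headers. Blood chemistry and milk were deposited with no unit.

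Genes averaging at least 10 raw counts were fitted with edgeR 4.0.16 (R 4.3.3, TMM scaling, robust quasi-likelihood, Benjamini-Hochberg adjustment, treatment as covariate); the common biological coefficient of variation was 0.317. The SE is the fold change over the square root of F. DESeq2 1.42.0 and limma-voom (limma 3.58.1) were alternatives, with other scalings, filters and samples. This fit was also tested on simulated data. Permutation tests ran in scipy 1.17.1. Chemistry and milk took 21 measures, among them OSi computed as TBARS over AC, with 2 values missing for SOD on day 4.

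Members and lists were chosen with earlier results of these data known. The 28 lists held 726 names, of which 652 were found by symbol, and 7 genes stand in more than 1 list. Named genes were the 15 with the largest fold change in each direction, up to 4 called members of each list, 46 fixed genes and the 10 most like CD79A; other list members were picked after their values were seen, and 3 genes under this rule are not reported here. The cows are separate animals, and p-values measure the spread between them.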

Additional observations from a re-analysis of the deposited data

Results flagged for a closer look

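In 38 of 393 groups of libraries or cows, 1 value lay far from the others of its group by Dixon's criterion. The criterion flags about 1 in 20 independent groups by chance. The count here is above that share. Many genes were chosen for their differences and all share the same libraries, so the count cannot be read against it. Among B-cell-poor libraries, supplemented cow 6 was far above the others for TGM3 (6798 CPM), RETN (1394 CPM), CD244 (152.3 CPM), LGALS3 (190.6 CPM), MMP25 (440.6 CPM), C5AR1 (705.1 CPM), SOD2 (4925 CPM), ANXA1 (4931 CPM), FCER1G (1319 CPM), SELPLG (1316 CPM), ITGB7 (970.3 CPM) and NCF1 (1300 CPM). The same cow was far below them for LAT (63.2 CPM), CD74 (2170 CPM) and TCF7 (94.5 CPM). It was also flagged for PEG10 at 0 CPM, against 0.122 to 0.148 CPM in the other B-cell-poor libraries. At such levels this flag shows no difference. Its total count was 1.685e+07, its clusters 4.754e+07, its yield 1.436e+04 Mb and its AC on day 14 1.972, all high.

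Control cow 5 was far above the other B-cell-poor cows for IFI30 (88.5 CPM), IL1B (1697 CPM), TNF (264.8 CPM) and OSi on day 0 (2.206), and supplemented cow 2 stood apart for KIT (7.98 CPM), SOD on day 14 (1.6) and TBARS on day 14 (1.333). Among B-cell-rich cows, supplemented cow 4, the library nearest to the CD79A limit, stood apart for CECR2 (6.459 CPM), LEF1 (102.7 CPM), TXK (38.4 CPM), CD4 (245.4 CPM), SHANK3 (49.7 CPM), PRMT1 (207.8 CPM) and VAV2 (34.2 CPM). The others were supplemented cow 5 for PEG10 (0.5195 CPM), supplemented cow 3 for JUN (138.6 CPM), control cow 6 for RAC1 (341.3 CPM) and control cow 1 for SOD on day 4 (1.5).

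The change across the CD79A division differed between supplemented and control cows for 3 genes by DESeq2's interaction term, with differences on the log2 scale of 30 for CATHL4, -3.323 for ENSBTAG00000053537 and 2.032 for IFITM1. The value of CATHL4, a cathelicidin with close copies, lies at the limit of the fit and is no measure of size. By edgeR, 0 genes differed, with 484 at an unadjusted p under 0.05.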

How the results depend on the processing

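The number of genes called was 3325 higher and 2868 lower by DESeq2 and 2884 and 2858 by limma-voom. It was 1177 higher and 947 lower in supplemented cows alone, and 1704 and 1443 in control cows alone, where fewer cows entered the fit. Leaving out 1 cow at a time gave 2482 to 3135 genes higher and 2429 to 2776 lower, the lowest of both without control cow 5. The interaction with treatment gave 3 genes by DESeq2 and 0 by edgeR, also 0 without supplemented cow 6. With the exact permutation p from absolute differences, 1 chemistry measure passed, TBARS on day 0 (difference 0.253, adjusted p = 0.0424). Leaving out 1 cow gave differences of 0.222 to 0.284. By the main definition of the p, which doubles the smaller tail, the adjusted p were then 0.0636 to 0.254 by exact permutation. The smallest possible p grows when a cow is left out, so these values cannot show whether the result was lost.

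Of list medians, 332 of the values under other settings kept their direction and size, 28 moved and 4 changed sign; with 1 cow left out these were 326, 8 and 2. The sign changed for erythroid genes (-0.56), heat shock genes (0.0081) and cell cycle genes (0.17) in supplemented cows alone. Heat shock genes also turned with CD79A as a slope (0.033) and without supplemented cow 2 (0.02) or supplemented cow 3 (0.023), within a range of -0.14 to 0.023 over the cows left out. Of single genes, BOLA-DRA turned without the 2 libraries highest in S100A12 (0.079), CCR7 (-0.15) and TNF (-0.50) in supplemented cows alone, and TNF without control cow 5 (-0.25), whose range over the cows left out reached 2.78 without supplemented cow 6. The cause was not tested. No paired analysis was possible because the replicate numbers follow accession order and pair no cows. Groups of 4 and 8 cows and 6.78 M to 16.9 M counts limit the precision for genes with few reads.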
